A study of Mus musculus with 8 samples.

Results

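Mast cell genes were examined in testes at postnatal day 8, from wild type mice and from mice deficient in VRK1. They comprised 10 genes, of 27670 gene symbols that the arrays measured: the chymases Cma1 and Mcpt4, the tryptases Tpsb2 and Tpsab1, carboxypeptidase A3 (Cpa3), the histamine enzyme Hdc, the amine transporter Slc18a2, the IgE receptor chains Fcer1a and Ms4a2, and the transcription factor Gata2. Members were found by the gene name that the array files give each probe, and 9 of the 10 were found in this way, with 13 probes. Tpsb2 was found under its older name, Mcpt6, through accession NM_010781, which made 14 probes. The genes were selected on their log2 difference between genotypes on these same 8 arrays, which had been seen before the list was made. That difference between genotypes is therefore given as a description, without a test.

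Total RNA from testes was labeled with Cy3 and hybridized to 1-color whole genome mouse arrays from Agilent, and each genotype had 4 biological replicates. The labels give the genotypes as wild type and VRK1-deficient, and all mice were male. Per the methods of the study, the VRK1-deficient mice carried a gene trap that placed a β-geo reporter, with an engrailed 2 intron, into an intron of Vrk1, came from embryonic stem cell line RRR178, and were backcrossed to C57BL/6. The trap leaves some full-length transcript, so these mice are hypomorphs and not a complete knockout. The arrays lay on 2 slides, with replicates 1 and 2 of both genotypes on slide 1 and replicates 3 and 4 on slide 2. Positions 1 and 2 of each slide carried wild type and positions 3 and 4 carried VRK1-deficient RNA, so array position and genotype cannot be told apart.

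Mast cells are tissue-resident cells of the blood lineage that fill their granules with proteases, histamine and heparin. Connective tissue mast cells hold chymases, tryptases and carboxypeptidase A3, and they release these when antigen cross-links IgE on the high-affinity receptor FcεRI. They depend on the receptor Kit, and in the testis they are known from the capsule and the tissue between the tubules.

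Levels are log2 signals from which the 75th percentile on the same array was subtracted, and a difference is VRK1-deficient minus wild type on that log2 scale, with the standard error of the limma fit. A probe counts as detected on an array where Agilent Feature Extraction marked it well above background. Probes detected on at least 4 of the 8 arrays were tested, which left 26948 of 41174 probes. Levels of different probes cannot be set against each other. Positions of probes refer to mouse build mm7, as in the array files.

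Vrk1 itself (probe A_51_P102339, chr12:103556489-103557469, plus strand) was measured first, as a check of the labels. The wild type arrays gave -0.20, -0.11, 0.59 and 0.35, and the VRK1-deficient arrays gave -3.97, -3.68, -3.58 and -4.16. The groups were far apart, with VRK1-deficient lower. The difference was -4.00 ± 0.21 (SE), with an adjusted p of 0.000135 (limma, Benjamini-Hochberg over all tested probes), and with slide 1 alone the adjusted p was 0.0622.

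Wild type replicate 1 stood apart from the rest of its genotype in most of the germ cell genes listed next. The summed signal of 6 germ cell genes (Ddx4, Dazl, Mael, Stra8, Sycp3 and Dmrt1), in multiples of the 75th percentile, was 30.5 on that array and 66.4, 95.1 and 86.1 on the other wild type arrays. On the VRK1-deficient arrays it was 18.5, 36.9, 34.9 and 24.4. Stra8, the brightest probe, weighs most in this sum. Taken singly, each of these genes except Dmrt1 was lowest in wild type on replicate 1. Dmrt1 was at 0.30 on wild type replicate 1 and lower, at 0.02, on wild type replicate 3. The correlation over the tested probes did not single this array out, since replicates 1 and 3 both correlated with the other wild type arrays at 0.970 to 0.986, and VRK1-deficient arrays correlated with each other at 0.990 or above. Without wild type replicate 1, limma called 28.4% of all tested probes, against 3.64% with all 8 arrays. The results of the mast cell genes are therefore also given without it.

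The tryptase probes show how close the members of a protease family lie. Tpsb2 and Tpsab1 encode mast cell β and α/β tryptases and sit near each other on chromosome 17. The probe sequences are shown because a tryptase transcript could bind to either probe. Capitals mark bases that are identical when the probes are aligned without gaps, with 39 of 57 overlapping bases identical (68.4%).
Tpsb2: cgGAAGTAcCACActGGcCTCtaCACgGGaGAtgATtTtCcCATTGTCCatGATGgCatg
Tpsab1: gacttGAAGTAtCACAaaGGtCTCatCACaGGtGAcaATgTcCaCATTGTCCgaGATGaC
No other pair of member probes exceeded 49.1% over at least 40 overlapping bases. The amount of cross-hybridization was not tested.

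The 5 protease genes had higher mean signals in VRK1-deficient than in wild type testes, by 1.51 to 1.90 on the log2 scale, or 2.84- to 3.73-fold, for the 4 genes detected on at least 3 arrays of each genotype. The other, Tpsab1, was detected on 1 wild type array, so its difference of 1.96 is largely one against background signal. The mean level of the other 4 was -4.21, -4.98, -4.96 and -4.75 on the wild type arrays and -3.28, -2.68, -3.14 and -3.26 on the VRK1-deficient arrays. Wild type replicate 1 was the wild type array nearest to the VRK1-deficient ones. The difference of this mean was 1.63, with 1.61 on slide 1 and 1.66 on slide 2, and it was 1.81 without wild type replicate 1. With a normexp background correction, described below, the differences of the 4 genes were smaller, at 0.59 to 1.04. Cpa3 and Tpsb2 were each well above background on 3 wild type arrays, so their sizes are partly against background signal. The genes were selected on their differences between genotypes, so nothing is read from the separation. In whole testes, fewer cells of a type and less RNA per cell cannot be told apart, and the same holds for more cells and more RNA.

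**Figure D1:**
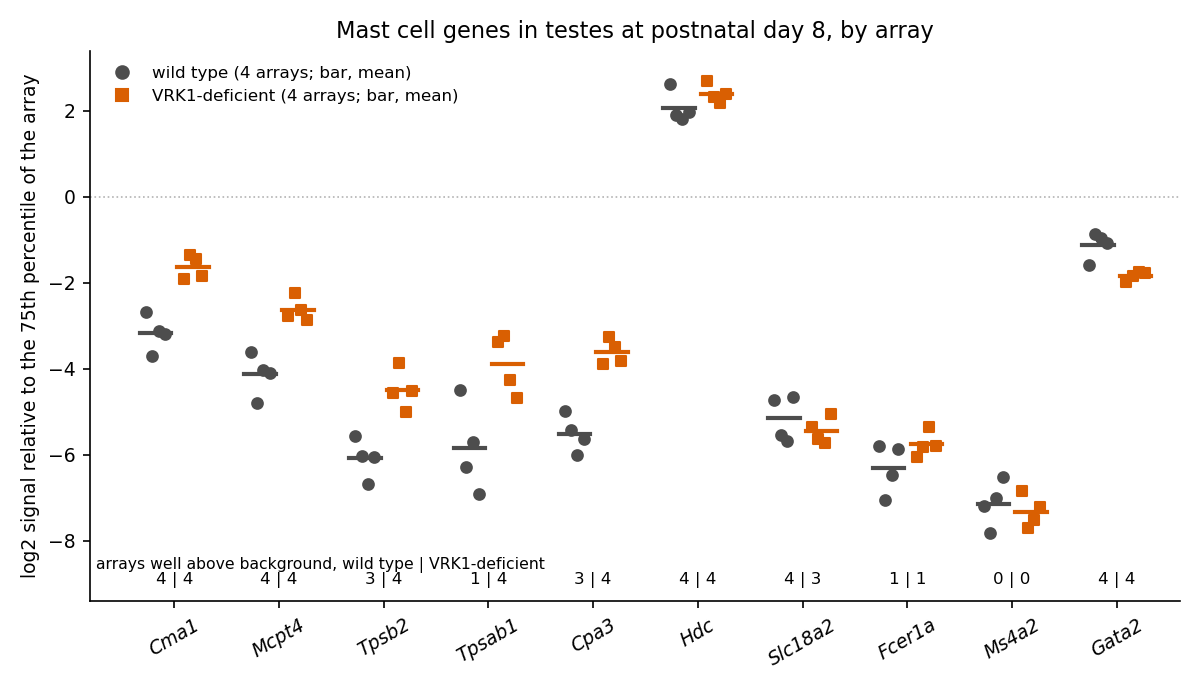
Log2 signal after subtraction of each array's 75th percentile (vertical axis) for the 10 mast cell genes, with one point per array (circles, 4 wild type arrays; squares, 4 VRK1-deficient arrays), bars for means, and numbers of arrays well above background below. The points of Cma1, Mcpt4, Tpsb2 and Cpa3 were separated with VRK1-deficient higher, those of Gata2 with VRK1-deficient lower, and the rest overlapped; levels of different genes come from different probes and cannot be compared.

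Cma1 encodes a chymase, a serine protease of connective tissue mast cell granules (NM_010780, chr14:50808970-50809029, minus strand). It was detected on all 8 arrays. The wild type arrays gave -2.67, -3.70, -3.13 and -3.19, and the VRK1-deficient arrays gave -1.90, -1.36, -1.44 and -1.83. The groups did not overlap, and wild type replicate 2 was the lowest array. The means were -3.17 ± 0.42 and -1.63 ± 0.27 (SD, n = 4 each), a difference of 1.54 ± 0.22 (SE), or 2.91-fold. Slide 1 gave 1.56 and slide 2 gave 1.52.

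A further Cma1 probe (chr14:50810007-50811066) covers a genomic stretch longer than its 60 bases, so it crosses a splice junction of the spliced transcript. Its sequence is shown because it reads chymase messenger RNA away from the first probe:
Cma1: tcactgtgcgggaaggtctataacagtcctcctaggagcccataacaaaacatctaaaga
This probe was dimmer and was detected on 1 wild type array and all 4 VRK1-deficient arrays. It gave -5.24, -7.14, -5.97 and -6.21 in wild type and -4.47, -3.64, -3.92 and -4.35 in VRK1-deficient testes. The groups did not overlap, and the difference was 2.04 ± 0.36 (SE), but the probe passed the filter only through the VRK1-deficient arrays, so this size is largely one against background signal.

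Mcpt4 encodes mouse mast cell protease 4, the other chymase of connective tissue mast cells, from the same cluster on chromosome 14 (NM_010779, chr14:50927105-50927164, minus strand). Wild type arrays gave -3.61, -4.79, -4.02 and -4.10, and VRK1-deficient arrays gave -2.77, -2.24, -2.62 and -2.86. All 8 arrays detected the probe, the groups were separated, and wild type replicate 2 was again the lowest. The difference was 1.51 ± 0.24 (SE), or 2.84-fold, with 1.69 on slide 1 and 1.32 on slide 2. A neighboring Mcpt4 probe (chr14:50927256-50927314), whose entry also lists a transcript of Cma2, differed by 1.23 ± 0.24 (SE) without overlap, and signal from these related genes on that probe cannot be told apart.

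Cpa3 encodes the metalloprotease carboxypeptidase A3, which is stored with the chymases (NM_007753, chr3:19947691-19947750, minus strand). The levels were -4.98, -5.42, -6.01 and -5.64 in wild type and -3.89, -3.26, -3.48 and -3.82 in VRK1-deficient testes. The groups did not overlap, with 3 wild type and 4 VRK1-deficient arrays well above background. The means were -5.51 ± 0.43 and -3.61 ± 0.29 (SD, n = 4 each), and the difference was 1.90 ± 0.23 (SE), or 3.73-fold. It was 1.63 on slide 1 and 2.17 on slide 2.

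Tpsb2 (NM_010781, chr17:23550604-23550663, plus strand) gave -5.56, -6.02, -6.69 and -6.06 on the wild type arrays and -4.57, -3.86, -5.01 and -4.52 on the VRK1-deficient arrays. The lowest VRK1-deficient array lay above the highest wild type array, and 3 wild type and 4 VRK1-deficient arrays detected the probe. The difference was 1.59 ± 0.28 (SE), or 3.01-fold, with 1.57 on slide 1 and 1.61 on slide 2. Tpsab1 (NM_031187, chr17:23526786-23526845, minus strand) gave -4.49, -6.28, -5.71 and -6.91 in wild type and -3.38, -3.23, -4.26 and -4.67 in VRK1-deficient testes. Here the groups overlapped, since VRK1-deficient replicate 4 lay below wild type replicate 1. Only 1 wild type array detected Tpsab1, against 4 VRK1-deficient arrays, so it was among the tested probes only through the group in which it was high. The difference was 1.96 ± 0.51 (SE), the widest error among the proteases, with 3 of the 4 wild type signals not well above background, and a RefSeq gene table lists this locus as a transcribed pseudogene in the reference strain.

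Wild type replicate 1 was the highest wild type array for Cma1, Mcpt4, Cpa3, Tpsb2 and Tpsab1 alike. Without it the differences were 1.71 for Cma1, 1.68 for Mcpt4, 2.08 for Cpa3, 1.77 for Tpsb2 and 2.42 for Tpsab1. Leaving out any 1 of the 8 arrays kept the difference of each of the 5 genes at 1.29 or above.

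**Figure D2:**
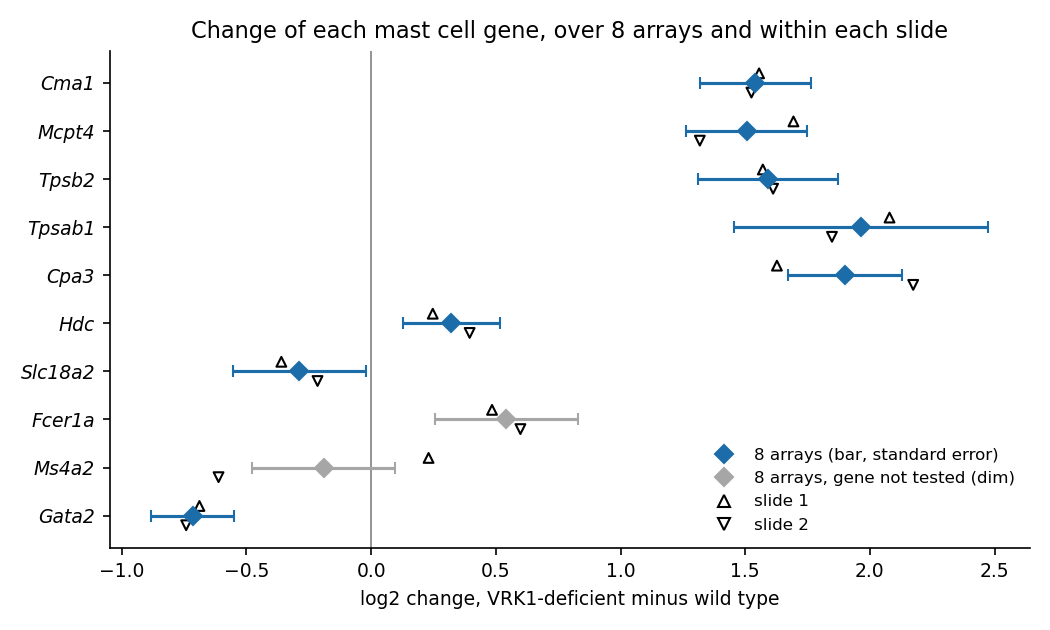
Log2 difference, VRK1-deficient minus wild type (horizontal axis), for each mast cell gene over all 8 arrays (diamonds with standard errors; grey where the gene was too dim to be tested) and within slide 1 and slide 2 (triangles). The 5 proteases lay between 1.32 and 2.17 on either slide, Gata2 lay below 0 on both, and Ms4a2, whose values are background signals, changed sign between the slides.

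The dim end of the arrays was itself shifted. The 11545 probes that were well above background on no array had a median difference of 0.40, with a median level of -7.98 in wild type and -7.61 in VRK1-deficient samples. With quantile normalization this median was 0.03, and the proteases then differed by 1.56 (Cma1), 1.54 (Mcpt4), 1.91 (Cpa3), 1.60 (Tpsb2) and 1.96 (Tpsab1). With a normexp background correction, which adds an offset to the signals, the differences were smaller, at 1.04, 0.88, 0.81, 0.59 and 0.67 for the same genes in that order, beside 0.32 for the undetected probes. The part of the background in these sizes was not tested further.

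**Figure D3:**
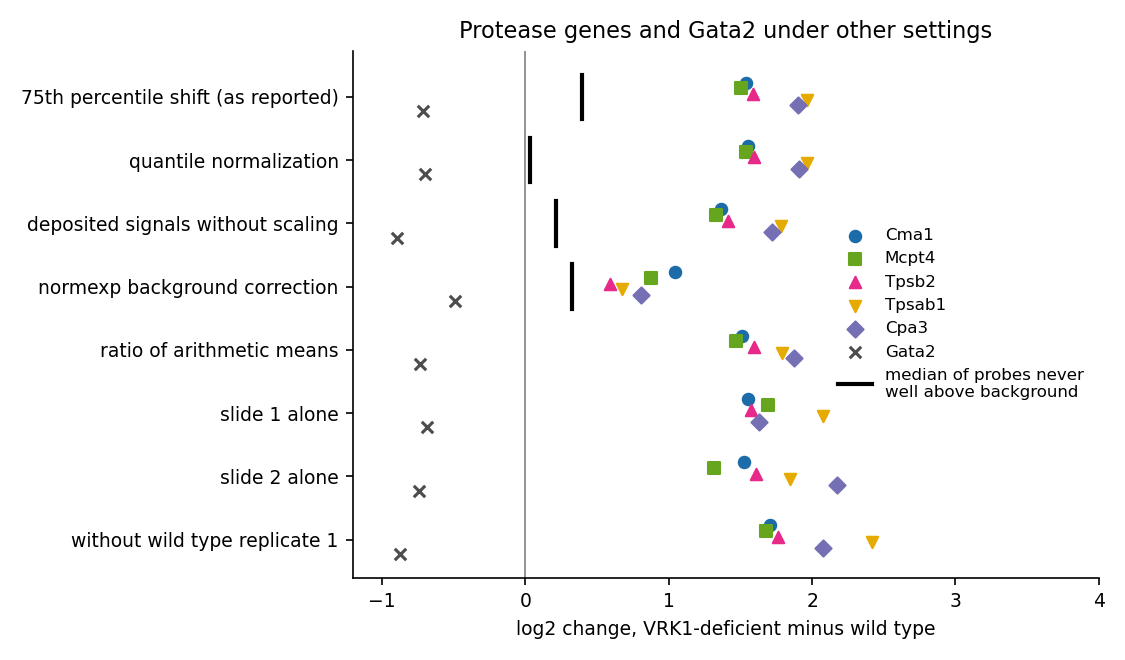
Log2 difference, VRK1-deficient minus wild type (horizontal axis), of the 5 protease genes and Gata2 under 8 settings of scaling, background, slide and replicates (vertical axis), with the median of the probes that were never well above background as a black line where it was computed. The proteases stayed above 0 and Gata2 below 0 in each row, and the proteases were closest to 0 with the normexp correction.

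Hdc encodes histidine decarboxylase, which makes histamine (NM_008230, chr2:126334633-126334692). It was detected on all 8 arrays, at 2.62, 1.90, 1.80 and 1.97 in wild type and 2.69, 2.32, 2.18 and 2.39 in VRK1-deficient testes. Wild type replicate 1 lay above 3 of the VRK1-deficient arrays, so the groups overlapped. The means were 2.07 ± 0.37 and 2.39 ± 0.21 (SD, n = 4 each), and the difference of 0.32 ± 0.20 (SE) was smaller than the wild type SD. Without wild type replicate 1 it was 0.50.

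Slc18a2 encodes the vesicular monoamine transporter VMAT2, which loads histamine and serotonin into granules (NM_172523, chr19:59217576-59217636, plus strand). It gave -4.72, -5.55, -5.68 and -4.66 in wild type and -5.35, -5.64, -5.72 and -5.05 in VRK1-deficient testes. The groups overlapped over most of their range, and the difference was -0.29 ± 0.27 (SE). A further Slc18a2 probe was detected on no array. Averaged over both probes the difference was -0.02, and with the normexp background correction it was 0.18, so Slc18a2 had no settled sign.

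The α and β chains of FcεRI were at or near background. Ms4a2 encodes the β chain (NM_013516, chr19:11297411-11297470) and was detected on none of the 8 arrays, with levels between -7.81 and -6.53 in wild type and between -7.71 and -6.85 in VRK1-deficient testes, so its difference of -0.19 is one between background signals and is not a fold change. Fcer1a encodes the IgE-binding α chain (NM_010184, chr1:173194818-173194877) and was detected on 1 array of each genotype. Its levels were -5.80, -7.04, -6.48 and -5.88 in wild type and -6.06, -5.81, -5.35 and -5.81 in VRK1-deficient testes, with overlap. Neither gene was tested. These chains were therefore not measured at a level that could be compared, although the granule proteases other than Tpsab1 were.

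Gata2 encodes a zinc finger transcription factor required for mast cell development and also active in blood progenitors and other cells (NM_008090, chr6:88281934-88281993, plus strand). It went the other way from the proteases. Wild type arrays gave -1.59, -0.85, -0.96 and -1.06, and VRK1-deficient arrays gave -1.98, -1.84, -1.74 and -1.76. The groups did not overlap, with VRK1-deficient lower, and wild type replicate 1 lay nearest to the VRK1-deficient arrays. The difference was -0.72 ± 0.17 (SE), with -0.69 on slide 1 and -0.74 on slide 2, and it was -0.87 without wild type replicate 1. A further Gata2 probe differed by -0.88 ± 0.19 (SE), also without overlap.

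In all, 8 of the 10 members passed the filter on dim probes and 2 did not, and 4 were detected on every array. Of the 8, 4 were higher in VRK1-deficient testes without overlap of the arrays (9.43% of all tested probes were so), 1 was lower without overlap (7.28% of all tested probes), and 3 overlapped. Since the list was built from this contrast, nothing is read from these counts.

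Promoters of the members were compared as a description. The members were selected on their differences between genotypes, so nothing is read from the direction in which each differed. GATA factors bind sequences such as AGATAA. Only these letters were searched, on both strands (TTATCT on the other), from 250 bases before to 50 bases after each gene start. The sequences were those of RefSeq for build GRCm38.p6. No other motif was searched. Windows were found for 8 of the 10 members (9 windows), and for neither Tpsb2 nor Tpsab1. The letters were present in 4 of these windows, those of Cpa3, Fcer1a, Slc18a2 and Ms4a2, and in 11.2% of all 32851 windows. They were not present in the windows of Cma1, Mcpt4, Hdc or Gata2, so the proteases with a window did not share these exact letters. Variants of the letters were not counted, so a window without AGATAA may still hold another GATA sequence. The Cpa3 window is shown, with its match in capitals (chr3:20242132-20242431, minus strand, GRCm38.p6):
Cpa3: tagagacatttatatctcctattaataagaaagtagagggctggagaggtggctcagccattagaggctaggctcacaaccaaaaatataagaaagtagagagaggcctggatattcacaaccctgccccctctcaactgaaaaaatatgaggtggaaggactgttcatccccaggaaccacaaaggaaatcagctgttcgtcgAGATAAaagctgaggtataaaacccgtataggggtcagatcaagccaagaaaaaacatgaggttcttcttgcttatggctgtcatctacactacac
A match in letters is a description and was not tested for binding.

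Other mast cell genes, outside the 10 members, went in both directions where they could be tested. Several of those tested, such as Cd63, Kit and Gata1, are also made by other cells. Mcpt1, Mcpt2, Mcpt9, Tpsg1, Mrgprb1, Mrgprb2 and Rgs13 were among those too dim to be tested. In whole testes the counts below therefore cannot be read as a result about mast cells. Of 14 granule and mediator genes 10 were tested, and none passed the test of limma in either direction, where limma called 3.64% of all tested probes (1.68% higher and 1.97% lower). Of these 10, 5 had a higher and 5 a lower mean, and the median difference was 0.01, beside 0.04 for all tested probes. Over these genes and the further receptor, transcription factor and growth factor genes, 29 genes were tested, 10 had an unadjusted p under 0.05 (28.8% of all tested probes had one) and 1 was called. Without wild type replicate 1, 9 of the 29 were called, where 28.4% of all tested probes were. Without any other array none was, where 3 to 68 of all tested probes were called. The count was 2 with unscaled signals (3.4% of all tested probes called), 3 with the normexp correction (5.14%), 3 on slide 2 alone (3.93%), and 4 with an intensity trend and robust variances (7.12%). It was 0 on slide 1 alone (0.0111%) and with no filter on dim probes (0.0413% of all probes). By the methods' t-test the count was 1 (0.805% of all tested probes called), the gene being Cd63.

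Rab27b, a small GTPase that docks secretory granules, was detected on 2 wild type and 4 VRK1-deficient arrays. It gave -5.34, -6.37, -5.34 and -6.63 in wild type and -4.57, -4.77, -5.06 and -5.00 in VRK1-deficient testes. The groups did not overlap, but the difference of 1.07 had an adjusted p of 0.0688 (limma), or 0.0437 with the normexp correction, where the difference was 0.56. Without wild type replicate 1 the difference was 1.27 (limma adjusted p = 0.016). Since only 2 wild type arrays detected Rab27b, it passed the filter only with the VRK1-deficient arrays. Its size is partly one against background signal, so nothing is read from these p-values. Cd63, a granule and lysosome membrane protein found in many cell types and the brightest of this list, differed by 0.38 with an adjusted p of 0.0627 (limma). It was 0.0334 with an intensity trend and robust variances, 0.0195 without wild type replicate 1 (limma) and 0.0499 by the methods' t-test. The Cd63 difference was 0.20 with unscaled signals (limma adjusted p = 0.67) and 0.30 with quantile normalization (limma adjusted p = 0.105). Tph1, the serotonin-making tryptophan hydroxylase, differed by -1.25 with an adjusted p of 0.0634 (limma). It was 0.00388 without wild type replicate 1, 0.0439 with unscaled signals, 0.0387 on slide 2 alone and 0.0488 with an intensity trend and robust variances. The Tph1 difference was -0.66 with the normexp correction (limma adjusted p = 0.0846) and -0.81 on slide 1 alone (limma adjusted p = 0.576). Serglycin (Srgn), the proteoglycan core that binds the proteases in the granule, differed by 0.24 (limma adjusted p = 0.365). Ctsg, a further granule protease of the list, was tested and went the other way from the 5 proteases. It differed by -0.79 (limma adjusted p = 0.247), and the groups overlapped. It was detected on 4 wild type and 2 VRK1-deficient arrays, so its size is partly one against background signal. Mcpt1 and Mcpt2, chymases typical of mucosal mast cells, the related protease gene Mcpt9 and Tpsg1, the membrane tryptase, were too dim to be tested.

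Of 17 receptor and signaling genes 13 were tested, of which none was called higher and 1 was called lower. This was Plcg2, the phospholipase Cγ2 of FcεRI signaling, and also the brightest of the list. It gave 1.47, 2.33, 2.61 and 2.14 in wild type and 0.69, 1.26, 1.14 and 1.09 in VRK1-deficient testes, without overlap. The difference was -1.09 ± 0.24 (SE), with an adjusted p of 0.0483 (limma). Leaving out wild type replicate 1 gave an adjusted p of 0.00353, whereas leaving out any other array gave 0.0740 to 0.151 (limma), so the call was lost without any 1 of these 7 arrays. With slide as a block the adjusted p was 0.0509 (limma), and none of the 29 genes was called. The call was also lost on slide 1 alone (limma adjusted p = 0.498), with no filter on dim probes (limma adjusted p = 0.0916) and by the methods' t-test (adjusted p = 0.0968).

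Kit, the stem cell factor receptor of mast cells, is also made by germ cells and Leydig cells in the testis. It gave 0.72, 1.55, 1.71 and 1.57 in wild type and 0.44, 0.92, 0.48 and 0.31 in VRK1-deficient testes. VRK1-deficient replicate 2 lay above wild type replicate 1, and the difference was -0.85 (limma adjusted p = 0.0633). Without wild type replicate 1 the difference was -1.07 (limma adjusted p = 0.00403), where 28.4% of all tested probes were called. Without any other array the limma adjusted p was 0.0845 to 0.172. Kit was also called with the normexp correction (limma adjusted p = 0.0370), on slide 2 alone (0.0391) and with an intensity trend and robust variances (0.0457). On slide 1 alone its difference was -0.46 (limma adjusted p = 0.606). Fcer1g, the γ chain that FcεRI shares with other Fc receptors, was detected on all 8 arrays and differed by 0.18 (limma adjusted p = 0.406). The IL-33 receptor Il1rl1 differed by 0.56 (limma adjusted p = 0.188). The mast cell receptors Mrgprb1 and Mrgprb2 were detected on no array.

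Of 6 further transcription factor genes, 5 were tested and none was called. Mitf, which drives Kit and protease genes in mast cells and acts in pigment cells too, had a difference of -0.64 (limma adjusted p = 0.0613), which was -0.02 with the normexp background correction (limma adjusted p = 0.941). Without wild type replicate 1 the Mitf difference was -0.71 (limma adjusted p = 0.0207). Gata1, which is also made by Sertoli cells, differed by -0.14. Of 6 growth factor and alarmin genes, only Kitl, which encodes the Kit ligand stem cell factor, was tested, and it differed by 0.48 (limma adjusted p = 0.115). Il3, Il9, Il33, Tslp and Csf2 were too dim to be tested.

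Markers of other cells were set beside the proteases, whose part in the protease differences was not tested. Of 4 basophil genes, Mcpt8, Cd200r3 and Il4 were detected on no array, and Prss34, the one tested, differed by -0.30. Of 12 macrophage genes 10 were tested and none was called, with a median difference of 0.09, and Lyz2 was the brightest. None of 6 leukocyte genes was called (median 0.11, with Coro1a the brightest). Of 9 granulocyte genes 2 were tested and neither was called, with differences of opposite sign. S100a9, a calcium-binding protein of neutrophils, differed by 1.55 (limma adjusted p = 0.143), and the neutrophil enzyme Mpo differed by -1.71 (limma adjusted p = 0.141). Each size rested partly on 1 array, since S100a9 differed by 0.93 without VRK1-deficient replicate 3 and Mpo by -0.92 without wild type replicate 2. The groups overlapped for S100a9 and did not for Mpo (7.28% of all tested probes were lower without overlap). Of 8 lymphocyte genes 6 were tested and none was called (median 0.05, Nkg7 the brightest).

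**Figure D4:**
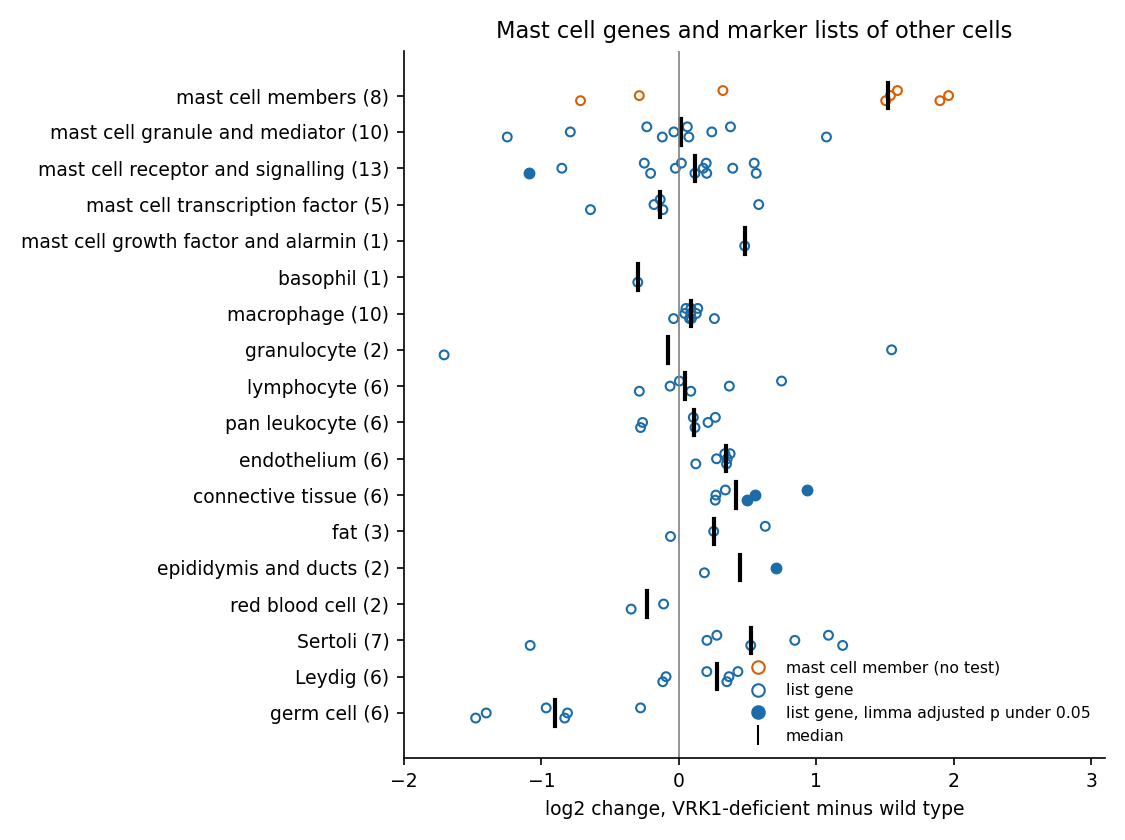
Log2 difference, VRK1-deficient minus wild type (horizontal axis), of each tested gene (circles) of the mast cell genes and of 17 marker lists (vertical axis, number tested in parentheses), with medians as black bars and list genes with a limma adjusted p under 0.05 filled; the mast cell members were given no test and are drawn open whatever their values. The 5 proteases lay at 1.51 or above, where one other tested list gene, S100a9, also lay, and the filled list genes were Plcg2, Dcn, Lum, Pdgfra and Cst8.

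Of 6 connective tissue genes, 3 were called higher in VRK1-deficient testes by limma (1.68% of all tested probes were), and the collagen genes Col1a1, Col1a2 and Col3a1 were not called. All 6 had a higher mean (median difference 0.42), 5 of them without overlap (9.43% of all tested probes). The called genes were decorin (Dcn), by 0.56 (adjusted p = 0.0444), lumican (Lum), by 0.93 (adjusted p = 0.0454), and Pdgfra, a receptor of stromal cells, by 0.50 (adjusted p = 0.0490). Their summed signal, in multiples of the 75th percentile and with Col1a2 the brightest, was 290.8, 251.1, 235.5 and 234.8 on the wild type arrays and 335.0, 319.3, 322.4 and 299.7 on the VRK1-deficient arrays. Among the wild type arrays it was highest on replicate 1, as were the sums of the Sertoli, Leydig, fat and epididymis lists. All 6 were called without wild type replicate 1, where 13.6% of all tested probes were called higher, and none was called without any 1 other array. With slide as a block Dcn and Lum were called, and Pdgfra was not (limma adjusted p = 0.0531). With signals not scaled between arrays none of the 6 was called (limma adjusted p = 0.0866 for Lum, 0.330 for Dcn and 0.420 for Pdgfra), and with quantile normalization the call of Dcn was lost (limma adjusted p = 0.0527). None was called with no filter on dim probes or on either slide alone. The methods' t-test called 1, Dcn (adjusted p = 0.0807 for Lum and 0.0566 for Pdgfra), where 0.805% of all tested probes were called.

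Of 7 epididymis and duct genes, Cst8, a cystatin of the male reproductive tract, was called higher, by 0.70 (limma adjusted p = 0.0454). The call was lost without any 1 array other than wild type replicate 1 (limma adjusted p between 0.0663 and 0.147) and with unscaled signals (limma adjusted p = 0.161). It was also lost with no filter on dim probes (limma adjusted p = 0.0889) and by the methods' t-test (adjusted p = 0.0688). On slide 1 alone the limma adjusted p was 0.498, and on slide 2 alone it was 0.0741. Its list summed to 5.20, 3.51, 4.06 and 3.65 on the wild type arrays and 6.62, 6.61, 6.82 and 6.34 on the VRK1-deficient arrays, nearly all of it Cst8. The duct and epididymis genes Pax8, Lcn5, Lcn8 and Crisp1 were detected on no array. Cdh16 was detected on 2 wild type arrays and was not tested. Pax2, the other tested gene, was detected on all 8 arrays and was not called. All 6 endothelial genes had a higher mean (median 0.34, Cdh5 the brightest), and limma called none. The methods' t-test called 1 (0.805% of all tested probes called), and limma called 2 without wild type replicate 1 (28.4% of all tested probes called). Of 5 fat genes 3 were tested and none was called (median 0.25, Plin1 the brightest), and none of 2 tested red blood cell genes was called (median -0.23, Hba-a1 the brightest).

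Among the cells of the testis proper, none of 7 Sertoli genes (median 0.52, Inha the brightest), 6 Leydig genes (median 0.28, Hsd3b1 the brightest) or 6 germ cell genes was called. All 6 germ cell genes had a lower mean in VRK1-deficient testes, with a median of -0.90 and Stra8 the brightest. Of the 6, 5 were called without wild type replicate 1 (28.4% of all tested probes called), 3 on slide 2 alone (3.93%), 1 with unscaled signals (3.4%) and 1 with the normexp correction (5.14%). The part of these cells in the differences of the mast cell genes was not tested.

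Genes were ranked by how like their profile over the 8 arrays was to the mean of the 8 tested mast cell genes. The measure was the root mean square difference of profiles centered on their own mean, over 17928 genes. The members were selected on their differences, so a reference built from them carries these, and the ranking is only a description. The reference also includes Tpsab1, which passed the filter only through the VRK1-deficient arrays. The nearest was Abca8b, a transporter of the ABC family, at 0.14 on the log2 scale, with -3.04, -3.58, -3.77 and -3.66 in wild type and -2.56, -2.62, -2.76 and -2.89 in VRK1-deficient testes. Its groups were separated, and wild type replicate 1 was its highest wild type array. It was followed by Bpifb6, Akr1c19, Fabp7, P3h4, Insl6, Smpdl3a, Cst8, Fap and the unnamed transcript NAP029330-1, which was at 0.19. The mean of the 5 proteases alone, a reference chosen after the data were seen, gave Nefm as the nearest, at 0.31, and none of its 10 nearest genes was among the 10 above. The ranking thus depended on the reference, and no gene of the mast cell lists was in either set of 10.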

How the data were processed

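Gene expression was measured in testes at postnatal day 8 on 8 arrays, 1 per biological replicate, with groups taken from the labels. The authors used Cy3-labeled total RNA and extracted the arrays with Agilent Feature Extraction 9.5.3.1, per the submitters' processing notes. The authors deposited linear intensity values (processed signals), which have the local background subtracted and are not scaled between arrays. A value table that was also deposited held the same intensities, with 0 unequal values. The methods name GeneSpring for later steps, and for how they normalized, nothing is given in these sources.

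Here log2 intensities were shifted by the 75th percentile of each array, which was 642 to 848 on wild type and 548 to 745 on VRK1-deficient arrays. Of 43379 non-control spots per array, 58 to 134 outlier spots were left out and 0 were saturated. Between 63.6% and 69.5% of spots were well above background. Spots of a probe were averaged, and a gene was represented by its brightest probe. Probes were named through a RefSeq gene table by accession (22951), symbol (6659) or synonym (3109), and 8455 kept the name of the array file. Probes well above background on at least 4 arrays were tested with limma 3.58.1 in R 4.3.3, without covariates, and called at a Benjamini-Hochberg adjusted p under 0.05. The number of arrays limits the precision. The script was tested on simulated data. Python 3.11.15 with pandas 2.3.3, numpy 2.4.6 and matplotlib 3.10.9, and the R package data.table (version 1.17.8), handled values and figures.

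The members, gene lists and tests were chosen with earlier results of these data known. The genes named are the 10 members, Vrk1, the called genes and the brightest gene of each list, and the 10 genes of most like profile. Between genes, brightness served only to choose which to name, since levels of different probes cannot be compared. Other list genes were named after their values were seen. Alternatives were quantile normalization, unscaled signals, normexp with an offset of 50, no filter or one on all 8 arrays, each slide alone, a block for slide, a block for replicate number, leaving out each array, the methods' t-test, an intensity trend with robust variances, averaging a gene's probes and the ratio of arithmetic means. The p-values of the methods' t-test were adjusted here by Benjamini-Hochberg, which the methods do not name. A protease reference for like profiles was added after the data were seen.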

Additional observations from a re-analysis of the deposited data

Results flagged for a closer look

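Of 70 groups of 4 arrays examined, 4 held an array farther from the rest than Dixon's 95% critical value allows, and chance flags about 5% of groups. In 3 of the 4 it was wild type replicate 1. It gave -2.06 for the further Gata2 probe (A_52_P233441), where the remaining wild type arrays lay between -1.37 and -1.24. It gave 0.72 for Kit, where the others lay between 1.55 and 1.71, and 0.18 for Smpdl3a, where they lay between -0.19 and -0.13. VRK1-deficient replicate 1 gave -2.79 for Fap, a serine protease of activated fibroblasts, against -2.65 to -2.62 on the other VRK1-deficient arrays.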

How the results depend on the processing

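Over 174 values of the 10 mast cell genes under the alternatives, 167 moved by less than the spread between replicates. The 167 include the filters and the blocks for slide and replicate number, which leave a gene's difference unchanged by construction. Those values say nothing about stability. The 7 that moved further did so with the normexp background correction, where the log2 differences were 1.04 (Cma1), 0.81 (Cpa3), 0.59 (Tpsb2), 0.67 (Tpsab1), 0.88 (Mcpt4), 0.34 (Ms4a2) and 0.18 (Slc18a2), the last pair with their signs turned from -0.19 and -0.29. With each array left out in turn, the differences ranged from 1.36 to 1.71 for Cma1, 1.74 to 2.08 for Cpa3, 1.38 to 1.77 for Tpsb2, 1.61 to 2.42 for Tpsab1, 1.29 to 1.68 for Mcpt4, -0.87 to -0.63 for Gata2, 0.22 to 0.50 for Hdc, 0.29 to 0.71 for Fcer1a, -0.46 to -0.12 for Slc18a2 and -0.42 to 0.01 for Ms4a2.

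The number of probes called moved far more, from 982 (452 higher and 530 lower). It was 17 with no filter on dim probes, 626 with slide as a block, 3 on slide 1 alone and 1059 on slide 2 alone, 1920 with an intensity trend and robust variances, and 217 by the methods' t-test after adjustment (7065 before). Leaving out 1 array gave 3 to 7641 calls, with 7641 without wild type replicate 1 and 3 to 68 without any other. With signals not scaled between arrays 916 probes were called, 64 higher and 852 lower, against a median shift of all tested probes of -0.14. Samples with the same replicate number correlated in their deviations at 0.47, 0.07, 0.19 and -0.14, so the numbers were not taken as pairs, and the fit with the replicate block called 2280 probes, and 6 of the 29 mast cell list genes (Rab27b, Tph1, Kit and Mitf among them) and 5 of 6 germ cell genes. The cause of these changes was not tested. Signal over background limits Ms4a2, Fcer1a and, in wild type testes, Tpsab1. It also limits Cpa3 and Tpsb2, each well above background on 3 wild type arrays.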
